A study of Mus musculus with 44 samples.

Results

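Sgk1, Fkbp5, Nfkbia, Lcn2, Gpd1 and Map3k6 are genes whose RNA is known to rise after corticosteroids in one tissue or another, and they are followed here through the hypothalamus and the rest of the brain of mice driven to crave sodium. They were chosen by name, as the features called SGK1 (or SGK), FKBP5, NFKBIA, LCN2, GPD1 and MAP3K6 once the suffix of the feature name was removed, and not by their values. Each of the 6 genes had 1 feature, so the set is 6 of the 9554 features, and 6 of the 8097 mouse genes, that the table measures.

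The animals were adult male C57/Bl6 mice. Hypothalamus arrays numbered 4 for untreated controls, 5 for ACTH, 6 for ACTH followed by gratification (ACTH gratified), 4 for furosemide and 4 for furosemide gratified. The brain without hypothalamus had 4, 4, 5, 4 and 4 arrays of these groups, which makes 44 in all. ACTH is the pituitary hormone that drives the adrenal cortex to make corticosteroids, furosemide is a diuretic that causes sodium loss through the urine, and the gratified groups are those whose salt appetite was satisfied. Both tissues came from each animal, but which arrays share one is unknown here, as are dose, route, duration and the way of gratification. Each p-value below therefore reflects only the variation among the arrays, which may be technical.

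Corticosteroids bind the glucocorticoid and mineralocorticoid receptors, which enter the nucleus and act on genes next to short hormone response elements. Sgk1, the serum- and glucocorticoid-regulated kinase, is a textbook target of both receptors: in the kidney it carries the sodium-retaining action of aldosterone by keeping sodium channels at the cell surface. In the brain these receptors act in neurons and glia, and mineralocorticoid signalling is known to take part in sodium appetite.

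Each array set tissue RNA (Cy5) against a common mouse reference RNA (Cy3), so a level is the log2 ratio of tissue over reference. A level of 0 means equal signal, and levels are comparable between groups but not between genes. Neuron markers lay above proliferation markers on 44 of 44 arrays, which gives the direction of the ratio. In the hypothalamus ACTH gratified group, 2 arrays stood apart: replicate 4 had a mean correlation of 0.77 with the other arrays of its group, against 0.903 to 0.915 for those arrays, and replicate 6 had a hypothalamic peptide marker level of 0.38, against 1.34 to 2.01 on the other 5 arrays of that group and 0.34 to 0.73 on brain arrays. Among brain arrays, ACTH gratified replicate 3 and furosemide gratified replicate 4 had the lowest levels of the cortex and hippocampus markers, at -0.15 and 0.05. Member calls that use these arrays are given with and without them, while counts of list features include them. All 20 ACTH and ACTH gratified arrays carry sample numbers of one series that no other array carries, so for each comparison of ACTH with control or with furosemide the treatment and that series cannot be told apart. On those 20 arrays 20.3 to 33.5% of the values were exactly tied with another feature, against 2.75 to 16.1% on the other 24 arrays, so every ACTH call below sets arrays with many ties against arrays with fewer, and the part of ties in the calls was not tested. Control and furosemide arrays of a tissue share a series, while the furosemide gratified groups mix 2 of them. The series of the control and furosemide arrays differs between the tissues, so within these groups tissue and series cannot be told apart. In tissue RNA, fewer cells of a type and less RNA per cell cannot be told apart.

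Sgk1 (chr10:21882184-21999903 in GRCm38.p6) encodes the kinase that names the set. The reference table lists 6 starts for the gene, and the 250 bases before the start at the window chr10:21993640-21993889 (plus strand) are shown because they hold the palindromic hormone response element, AGAACA and TGTTCT separated by any 3 bases. Nfkbia (chr12:55489409-55492647) encodes IkB-alpha, the inhibitor that holds the transcription factor NF-kB in the cytoplasm and is itself a target of both NF-kB and glucocorticoids. Its window is chr12:55492648-55492897 (minus strand) and holds a kappa-B motif. The window is shown for that motif and because NFKBIA followed SGK1 most closely among the members over the 44 arrays. Both are from RefSeq, written 5′ to 3′, with the matched letters in capitals.
Sgk1: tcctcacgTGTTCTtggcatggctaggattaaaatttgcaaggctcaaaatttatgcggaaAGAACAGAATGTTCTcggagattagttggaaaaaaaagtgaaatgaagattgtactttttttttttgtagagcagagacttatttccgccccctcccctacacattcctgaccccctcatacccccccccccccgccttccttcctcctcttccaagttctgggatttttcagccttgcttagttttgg
Nfkbia: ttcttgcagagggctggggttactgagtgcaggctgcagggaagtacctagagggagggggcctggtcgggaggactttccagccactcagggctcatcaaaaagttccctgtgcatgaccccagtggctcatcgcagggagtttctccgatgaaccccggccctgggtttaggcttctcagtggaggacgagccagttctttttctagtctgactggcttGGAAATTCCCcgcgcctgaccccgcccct

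In the Sgk1 window the full element begins 189 bases before the start, and its outer parts are 2 matches of TGTTCT, 1 on each strand, separated by 3 bases. A further TGTTCT begins 242 bases before the start, and 2 of the other 5 Sgk1 windows hold TGTTCT alone. Among 32851 promoter windows of that length, 3 held the full element (0.00913%), 16.1% held TGTTCT and 1.41% held the kappa-B motif, GGG and TTTCC separated by any 2 bases, each searched on both strands. The kappa-B match of Nfkbia begins 29 bases before the start, on the strand opposite to the gene. The windows of Fkbp5, Lcn2 and Map3k6 held none of the 3 motifs. A match describes letters, not a bound site, and a missing match speaks only of this window.

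SGK1 was high in the furosemide groups of both tissues and back near the control level in the furosemide gratified groups. In the hypothalamus the 4 control arrays read -0.42, -1.02, -0.30 and -0.57. The 4 furosemide arrays read 0.12, 0.08, -0.07 and 0.18, all above every control. The furosemide gratified arrays read -0.70, -0.31, -0.52 and -0.42, all below every furosemide array and within the range of the controls.

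The brain without hypothalamus gave the same order. Its controls read -0.84, -0.98, -0.55 and -0.60, and its furosemide arrays -0.16, -0.02, 0.04 and -0.24. Its furosemide gratified arrays read -0.60, -1.06, -0.67 and -0.38. Again the furosemide arrays lay above all control and all gratified arrays, and gratified and control arrays overlapped.

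**Figure D1:**
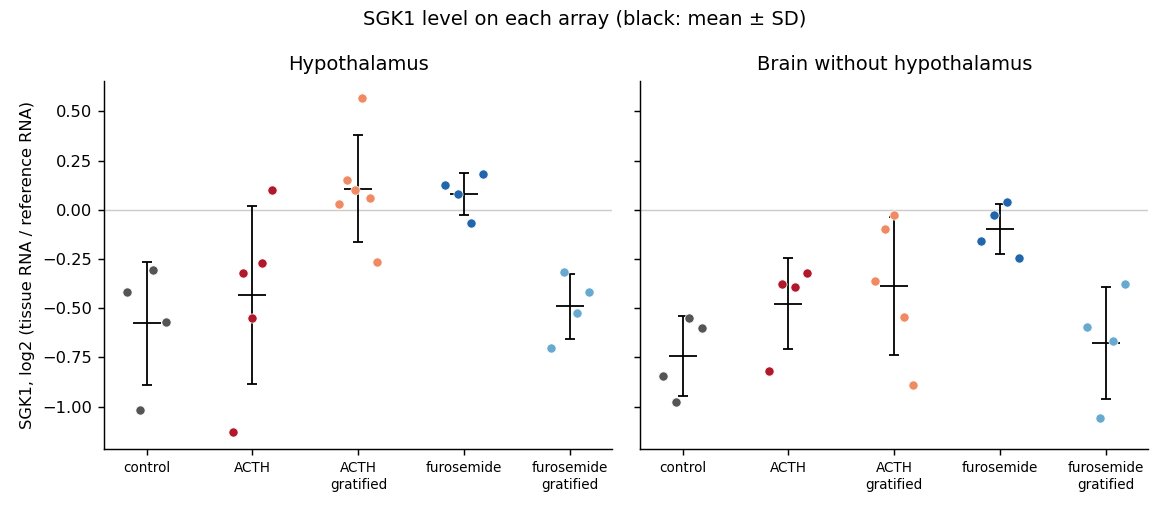
Level of SGK1 (vertical axis, log2 of tissue RNA over reference RNA) on each of the 44 arrays, by treatment group, for the hypothalamus (left) and the brain without hypothalamus (right); each point is an array, and black marks are the group mean ± SD. The 4 furosemide arrays of each tissue lie above the 4 control arrays of that tissue (hypothalamus mean 0.08 against -0.58, brain -0.10 against -0.74).

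The difference between furosemide and control was 1.58-fold in the hypothalamus (log2 0.66 ± 0.19, SE, n = 4 and 4) and 1.56-fold in the brain (log2 0.64 ± 0.17, n = 4 and 4). Neither passed the threshold of the limma fit over all features: unadjusted p = 0.00241 and adjusted p = 0.607 in the hypothalamus, and unadjusted p = 0.00102 and adjusted p = 0.176 in the brain. By p-value the feature was number 30 of 9554 in the hypothalamus and number 55 in the brain. With arrays weighted by quality the brain difference passed (log2 0.63, limma adjusted p = 0.0288), and the hypothalamus difference did not. The difference between the tissues in this effect was log2 0.01 ± 0.27 (unadjusted p = 0.961), an estimate that turned negative with quantile normalization, centring and array weights. Across the table, groups did not overlap with furosemide higher for 4.81% of features in the hypothalamus and 3.02% in the brain. Against these shares stand 3 of the 6 members in the hypothalamus (SGK1, NFKBIA and GPD1) and 1 in the brain (SGK1). At an unadjusted p under 0.05 stood 3 members in the hypothalamus and 1 in the brain, against 6.09% and 12.3% of all features.

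The gratified arrays are compared with the same furosemide arrays, so this is not a second independent view of them. Furosemide gratified minus furosemide was log2 -0.57 ± 0.19 for SGK1 in the hypothalamus (unadjusted p = 0.00706, limma adjusted p = 1) and -0.58 ± 0.17 in the brain (unadjusted p = 0.00258, limma adjusted p = 0.998), where it was number 10 of all features by p-value. Groups did not overlap, with the gratified group lower, for 2 of 6 members in the hypothalamus (SGK1 and NFKBIA; background 2.33%) and for 1 in the brain (SGK1; background 0.9%). Without the brain furosemide gratified array of low cortical marker level the SGK1 difference was -0.68, and with the number series as a factor it was -0.55 in the hypothalamus and -0.50 in the brain. Furosemide gratified minus control was log2 0.09 ± 0.19 in the hypothalamus and 0.07 ± 0.17 in the brain (limma adjusted p = 1 and 0.87), and the brain value was -0.03 without that array. Among control, furosemide and furosemide gratified, 0 of the 6 members passed in any of the 6 comparisons within a tissue. The share of all features past the threshold there was 0.0209% (furosemide), 0% (furosemide gratified) and 0.0105% (gratified against furosemide) in the hypothalamus and 0.0942%, 0% and 0% in the brain.

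Choroid plexus markers moved with these SGK1 levels in part. The mean level of that list of 8 features ranged from 0.30 to 0.77 on hypothalamus control arrays, from 0.39 to 1.08 on furosemide arrays and from 0.31 to 0.40 on furosemide gratified arrays. On brain arrays it ranged from 0.18 to 1.07, from 0.77 to 1.13 and from 0.33 to 1.10 in the same order. The median difference of the list, furosemide minus control, was log2 0.33 in the hypothalamus and 0.39 in the brain, with 0 of 8 past the threshold in either. The oligodendrocyte list had a median difference of 0.01 in the hypothalamus and 0.32 in the brain, again with 0 of 9 past the threshold. On brain arrays its level ranged from 1.77 to 2.20 in controls and from 2.19 to 2.34 with furosemide. Their part in the result was not tested.

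ACTH gave a different order of SGK1 levels in the hypothalamus. The ACTH arrays spread widely, at -1.13, -0.32, -0.55, -0.27 and 0.10, and overlapped the controls. The 6 ACTH gratified arrays had a lowest level of -0.27, a median of 0.08 and a highest level of 0.57, all above the highest control, as were 3.55% of all features. SGK1 thus rose in ACTH gratified hypothalamus against control, 1.61-fold (log2 0.69 ± 0.18, n = 6 and 4, limma adjusted p = 0.0128). In that comparison 2 of the 6 members rose, SGK1 and GPD1, where 4.67% of all features rose. Without replicates 4 and 6 of the ACTH gratified group the SGK1 difference was 0.66 (adjusted p = 0.0118), and without control replicate 2, the lowest control, it was 0.54 (adjusted p = 0.0732).

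Glial markers were lower on the same arrays. The astrocyte list ranged from 0.98 to 1.29 in ACTH gratified hypothalamus and from 1.61 to 1.70 in controls, and 4 of its 8 features fell, among them Glul, which the corticosteroid list also holds. The oligodendrocyte list ranged from 1.79 to 2.09 against 2.20 to 2.33 (3 of 9 fell) and the microglia list from 0.33 to 0.57 against 0.81 to 1.18 (4 of 6 fell), where 7.97% of all features fell. None of these ranges overlapped. Of the 8 hypothalamic peptide features 4 fell as well. The level of that list was 0.38 on replicate 6 and 1.34 to 2.01 on the other arrays of the group, against 1.88 to 2.20 in controls. All these list counts include replicates 4 and 6 and are not given without them. In furosemide gratified hypothalamus the astrocyte list ranged from 1.41 to 1.73 and the oligodendrocyte list from 2.22 to 2.42, both above ACTH gratified. With ACTH alone they ranged from 1.02 to 1.30 and from 1.73 to 2.10, against 1.57 to 1.73 and 2.24 to 2.42 with furosemide. The part of these cells in the SGK1, LCN2 and GPD1 calls with ACTH or ACTH gratified was not tested.

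With ACTH alone the SGK1 difference from control was smaller in size and did not pass: log2 0.14 ± 0.18 in the hypothalamus (limma adjusted p = 0.64) and 0.27 ± 0.17 in the brain (adjusted p = 0.234). In that brain comparison 9.29% of all features rose, 20.7% fell and 0 of the 6 members passed. At an unadjusted p under 0.05 stood 2 members, against 42.4% of all features. ACTH gratified minus ACTH was log2 0.54 ± 0.17 in the hypothalamus (unadjusted p = 0.00328, limma adjusted p = 0.349; 0.52 without replicates 4 and 6) and 0.09 ± 0.16 in the brain (adjusted p = 0.959; 0.0024 without the array of low cortical marker level, replicate 3). The difference between these tissue effects was 0.45 ± 0.24 and did not pass (unadjusted p = 0.0684). In the brain the ACTH gratified arrays read -0.36, -0.10, -0.03, -0.54 and -0.89 and overlapped the controls, with a difference of log2 0.36 ± 0.16 (adjusted p = 0.0893). It was 0.27 (adjusted p = 0.206) without replicate 3, and it passed with the arrays quantile normalized (0.42, adjusted p = 0.0477) and without replicate 5, the lowest array (0.48, adjusted p = 0.0193). The brain ACTH arrays read -0.82, -0.38, -0.39 and -0.32.

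SGK1 also differed between the treatments themselves in the hypothalamus. It was 1.51-fold higher in ACTH gratified than in furosemide gratified hypothalamus (log2 0.60 ± 0.18, n = 6 and 4, limma adjusted p = 0.024, and 0.58 with adjusted p = 0.0237 without replicates 4 and 6). The call was lost without furosemide gratified replicate 1 (0.53, adjusted p = 0.0692) or replicate 3 (0.59, adjusted p = 0.0679). In the ungratified state the order was turned: SGK1 was 1.43-fold lower with ACTH than with furosemide (log2 -0.52 ± 0.18, n = 5 and 4, limma adjusted p = 0.0458). That call was lost without any one of ACTH replicates 1, 2 and 3 or any one furosemide array, with a difference of -0.34 (adjusted p = 0.133) without ACTH replicate 1. In these comparisons 5.42% of all features rose (2 of 6 members, SGK1 and GPD1) and 13.4% fell (1 of 6 members, SGK1).

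NFKBIA showed the furosemide pattern in the hypothalamus with little spread. Its controls read -1.29, -1.24, -1.16 and -1.25, and its furosemide arrays -0.92, -0.89, -0.86 and -0.76. Its furosemide gratified arrays read -1.17, -1.15, -1.10 and -1.36. The furosemide arrays thus lay above all others of those groups, by log2 0.38 ± 0.12 against control (unadjusted p = 0.00455, limma adjusted p = 0.607) and by 0.34 ± 0.12 against gratified, neither past the threshold. In the brain the furosemide group was at -1.01 ± 0.08 (SD, n = 4), against -1.14 ± 0.13 in controls and -1.23 ± 0.12 with furosemide gratified, and it overlapped both.

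With ACTH, hypothalamic NFKBIA ranged from -1.56 to -0.91 on 5 arrays and with ACTH gratified from -1.43 to -0.91 on 6 arrays, around the control mean of -1.23. ACTH minus furosemide was log2 -0.30 ± 0.11 in the hypothalamus (limma adjusted p = 0.0576) and -0.25 ± 0.10 in the brain (adjusted p = 0.0766), where the groups did not overlap (SGK1 and NFKBIA were lower in this way, as were 19.4% of all features). With array weights both passed (adjusted p = 0.0039 and 0.0131), as did the brain difference with only the groups compared (0.0441) and the hypothalamus difference without ACTH replicate 3 (-0.36, adjusted p = 0.0316) or 5 (-0.34, adjusted p = 0.0479). Without ACTH replicate 1 the hypothalamus difference was -0.20 (adjusted p = 0.167). Of the 17 measured genes of the NF-kB list, Bcl3, a nuclear relative of the IkB proteins, rose with ACTH in both tissues (log2 0.63 ± 0.12, adjusted p = 0.00232 in the hypothalamus; 0.77 ± 0.20, adjusted p = 0.00691 in the brain). Rela, which encodes a main NF-kB subunit, fell with ACTH in the brain (log2 -0.44 ± 0.07, adjusted p = 0.000201), where 4 of the list's 19 features rose and 1 fell, against 9.29% and 20.7% of all features. With furosemide, 0 features of the list passed in either tissue.

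FKBP5 (chr17:28398753-28486149) is a co-chaperone that lowers the hormone affinity of the glucocorticoid receptor, and its own RNA is a widely used readout of receptor activity. It did not rise in any comparison here. In the brain the controls read -0.77, 0.12, 0.05 and -0.08, so that replicate 1 lay far below the other 3, and 2 of the 4 were tied with another feature. The ACTH gratified arrays read -0.58, -0.52, -0.96, -0.40 and -0.70, and overlapped the controls only through control replicate 1. FKBP5 fell there against control, 1.38-fold (log2 -0.46 ± 0.14, n = 5 and 4, limma adjusted p = 0.0169). In that comparison 21.2% of all features fell and 11.5% rose, against 1 member each way, FKBP5 and LCN2. The difference was -0.38 (adjusted p = 0.0457) without the array of low cortical marker level, and the call was lost without brain control replicate 2 (difference -0.37) or 3 (difference -0.39) and with only the groups compared in the fit (adjusted p = 0.0613). Without control replicate 1, 2 of the 3 controls left were tied, so no difference is given. In the same arrays the microglia list ranged from 0.34 to 0.59 against 0.78 to 1.29 in controls (6 of 6 fell) and the astrocyte list from 1.13 to 1.41 against 1.32 to 1.85 (2 of 8 fell). The part of these cells in the result was not tested.

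The other brain groups also lay below the brain controls, whose mean was -0.17 ± 0.41 (SD, n = 4). Brain ACTH was at -0.54 ± 0.15, furosemide at -0.44 ± 0.07 and furosemide gratified at -0.61 ± 0.14, and none of these differences passed the threshold (limma adjusted p = 0.0621 for ACTH, 0.475 for furosemide and 0.127 for furosemide gratified). The ACTH difference passed with array medians set to 0 (-0.39, adjusted p = 0.0469). Without control replicate 1 the ACTH and furosemide gratified differences also passed. Because 2 of the 3 controls left there were tied, their sizes are not given. The furosemide gratified difference was -0.44 (adjusted p = 0.165) without replicate 4, the array of low cortical marker level. Hypothalamic levels ran from -0.26 ± 0.15 with furosemide gratified to -0.52 ± 0.23 with ACTH gratified, with control arrays from -0.80 to -0.07. Of the 10 measured genes of other FK506-binding proteins, Fkbp4, the co-chaperone that opposes Fkbp5 at steroid receptors, fell in ACTH brain (log2 -0.36 ± 0.12, adjusted p = 0.0271), where 3 of that list's 10 features fell and 1 rose, against 20.7% and 9.29% of all features.

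LCN2 was higher with ACTH than in control or furosemide hypothalamus. Lipocalin 2 (chr2:32384637-32387739) is a secreted carrier of iron-binding siderophores, stored by neutrophils and made by glia and endothelium in inflammation. In the hypothalamus the controls read -1.23, -1.43, -1.41 and -1.41. The ACTH arrays read -0.35, -0.18, -0.91, -1.08 and -1.04, with replicates 1 and 2 far above the others and all 5 above every control, as were 7.87% of all features. LCN2 rose 1.58-fold (log2 0.66 ± 0.14, n = 5 and 4, limma adjusted p = 0.00473), and the call held in each of 9 fits that left out 1 array (0.53 to 0.75). It was the only member of the 6 to rise in a comparison in which 4.49% of all features rose and 6.03% fell.

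Furosemide arrays of the hypothalamus lay between -1.49 and -1.42, at or below the low end of the control range, and furosemide gratified arrays between -1.68 and -1.38. LCN2 was accordingly 1.68-fold higher with ACTH than with furosemide there (log2 0.75 ± 0.14, limma adjusted p = 0.000858), where 9.27% of all features rose. The 6 ACTH gratified arrays had a lowest level of -1.26, a median of -1.14 and a highest level of -0.95, between the ACTH and control groups. Their difference from ACTH was log2 -0.41 ± 0.13 (unadjusted p = 0.0037, limma adjusted p = 0.354), and -0.41 (adjusted p = 0.556) without replicates 4 and 6.

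In the brain LCN2 rose with ACTH gratified against control, 1.33-fold (log2 0.41 ± 0.13, n = 5 and 4, limma adjusted p = 0.0205). The controls read -1.52, -1.41, -1.12 and -1.34 and the ACTH gratified arrays -0.46, -1.02, -0.95, -1.14 and -1.10, so the groups overlapped through control replicate 3. Without ACTH gratified replicate 1, the highest array, the difference was 0.29 (adjusted p = 0.0571), and without control replicate 1 it was 0.35 (adjusted p = 0.0643). Without replicate 3, the array of low cortical marker level, it was 0.42 (adjusted p = 0.0303). Brain ACTH, at -1.08, -0.67, -1.21 and -1.25, did not differ from control past the threshold (log2 0.30 ± 0.14, adjusted p = 0.104). Against furosemide, whose 4 brain arrays lay between -1.55 and -1.45, it was higher by log2 0.44 ± 0.14 (adjusted p = 0.0359, background 5.2%), and ACTH gratified was higher than furosemide gratified by 0.46 ± 0.13 (adjusted p = 0.0317, background 3.36%). The first call was lost without ACTH replicate 1 or 2 or any one furosemide array (lowest difference 0.31). The second was lost without ACTH gratified replicate 1 or furosemide gratified replicate 1, 3 or 4 (lowest difference 0.34; 0.42 without replicate 4, the array of low cortical marker level). Without ACTH gratified replicate 3 it was 0.47 (adjusted p = 0.043).

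Blood and neutrophil markers moved with hypothalamic LCN2. Of 5 such features, 2 rose in ACTH hypothalamus, S100a8 and Alas2, where 4.49% of all features rose, and the list's median difference was log2 0.25. The list's mean level ranged from 0.64 to 0.89 on ACTH arrays and from 0.45 to 0.54 on control arrays. In ACTH gratified brain 1 of the 5 rose, Ltf, where 11.5% of all features rose, and the median difference was -0.06. Haptoglobin (Hp), an acute phase protein of the iron carrier list, rose in ACTH brain (log2 0.25 ± 0.08, adjusted p = 0.0181) and in ACTH gratified brain (0.31 ± 0.07, adjusted p = 0.00336). Microglia markers moved the other way: 3 of 6 fell in ACTH hypothalamus, where 6.03% of all features fell. In ACTH and in ACTH gratified brain 6 of 6 fell, where 20.7% and 21.2% of all features fell. The part of these cells in the result was not tested.

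GPD1 (chr15:99717587-99725014), the cytosolic glycerol-3-phosphate dehydrogenase that links glycolysis to lipid synthesis and is rich in oligodendrocytes, was the only member to pass the threshold between tissues, in 2 of the 5 groups. For the ACTH group GPD1 is not judged between tissues, because all 5 hypothalamus arrays were tied with another feature. In controls it read 0.60, 0.43, 0.37 and 0.56 in the hypothalamus and 0.87, 0.70, 1.02 and 0.98 in the brain, without overlap (6.43% of all features were lower in this way). It was 1.32-fold lower in control hypothalamus (log2 -0.40 ± 0.11, n = 4 and 4, limma adjusted p = 0.0437; 1.75% of all features were lower). In furosemide gratified mice it was 1.60-fold lower (log2 -0.68 ± 0.11, adjusted p = 0.000248; 0.649% of features lower). These arrays read 0.24, 0.73, 0.34 and 0.41 in the hypothalamus and 1.05, 0.89, 1.22 and 1.27 in the brain, again without overlap (background 2.26%). The control arrays of the tissues carry different number series, so for the control difference tissue and series cannot be told apart. With the number series as a factor, which only the furosemide gratified groups can inform here, the control difference no longer passed (-0.37, adjusted p = 0.637). The furosemide gratified difference still passed (-0.69, adjusted p = 0.000454). The control call was also lost without any one of control replicates 1, 3 and 4 of the brain and 2, 3 and 4 of the hypothalamus, and the furosemide gratified call with only those 2 groups in the fit (adjusted p = 0.0637). Without the brain array of low cortical marker level the latter was -0.63 (adjusted p = 0.00141). The oligodendrocyte list ranged from 2.20 to 2.33 in control hypothalamus and from 1.77 to 2.20 in control brain.

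Within the hypothalamus GPD1, like SGK1, read highest with furosemide and ACTH gratified. Furosemide arrays read 0.89, 0.81, 0.80 and 0.67, all above the controls, at log2 0.30 ± 0.10 (unadjusted p = 0.0075, limma adjusted p = 0.607). Furosemide gratified minus furosemide was -0.36 ± 0.10 (unadjusted p = 0.00175, adjusted p = 0.791). ACTH gratified arrays ranged from 0.54 to 0.99 and GPD1 rose against control (log2 0.28 ± 0.09, adjusted p = 0.0477), a call lost without replicates 4 and 6 (0.25, adjusted p = 0.0723) and without any one control array or ACTH gratified replicate 1, 2 or 6 (0.24 to 0.32). It was also higher than in furosemide gratified hypothalamus (log2 0.35 ± 0.09, adjusted p = 0.0151), a call kept without ACTH gratified replicates 4 and 6 (0.31, adjusted p = 0.0237) and lost without furosemide gratified replicate 1 (0.28) or 3 (0.32). The ACTH arrays of the hypothalamus read 0.60 to 0.77, and all 5 were tied with another feature, so no difference is given for them. In the brain the group means ran from 0.84 to 1.11, and no treatment passed.

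MAP3K6 (chr4:133237979-133252929), a kinase of the apoptosis signal-regulating family upstream of the stress kinases JNK and p38, did not pass the threshold in any comparison of the main analysis, although it did under other settings in 3 of them. Its brain levels were near 0 in controls (0.08 ± 0.18, SD, n = 4) and furosemide (0.08 ± 0.12), against -0.21 ± 0.14 with furosemide gratified. The last group differed from furosemide by log2 -0.30 ± 0.09 (unadjusted p = 0.00421, limma adjusted p = 0.998) and from control by -0.29 ± 0.09 (adjusted p = 0.108; -0.38 and 0.0202 without brain control replicate 1). Without furosemide gratified replicate 4 these differences were -0.23 each. ACTH gratified minus control was -0.21 ± 0.09 in the brain (adjusted p = 0.0669). It passed with quantile normalization (-0.24, adjusted p = 0.0402), with array weights (-0.23, adjusted p = 0.0244) and without control replicate 1 (-0.30, adjusted p = 0.0112), and it was -0.20 (adjusted p = 0.103) without ACTH gratified replicate 3. Control hypothalamus minus control brain, where tissue and number series cannot be told apart, was -0.32 ± 0.13 (adjusted p = 0.218), and -0.37 (adjusted p = 0.0406) with array weights. In the hypothalamus the control mean was -0.24 ± 0.22 and the other groups ran from -0.18 to -0.00, all overlapping it.

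**Figure D2:**
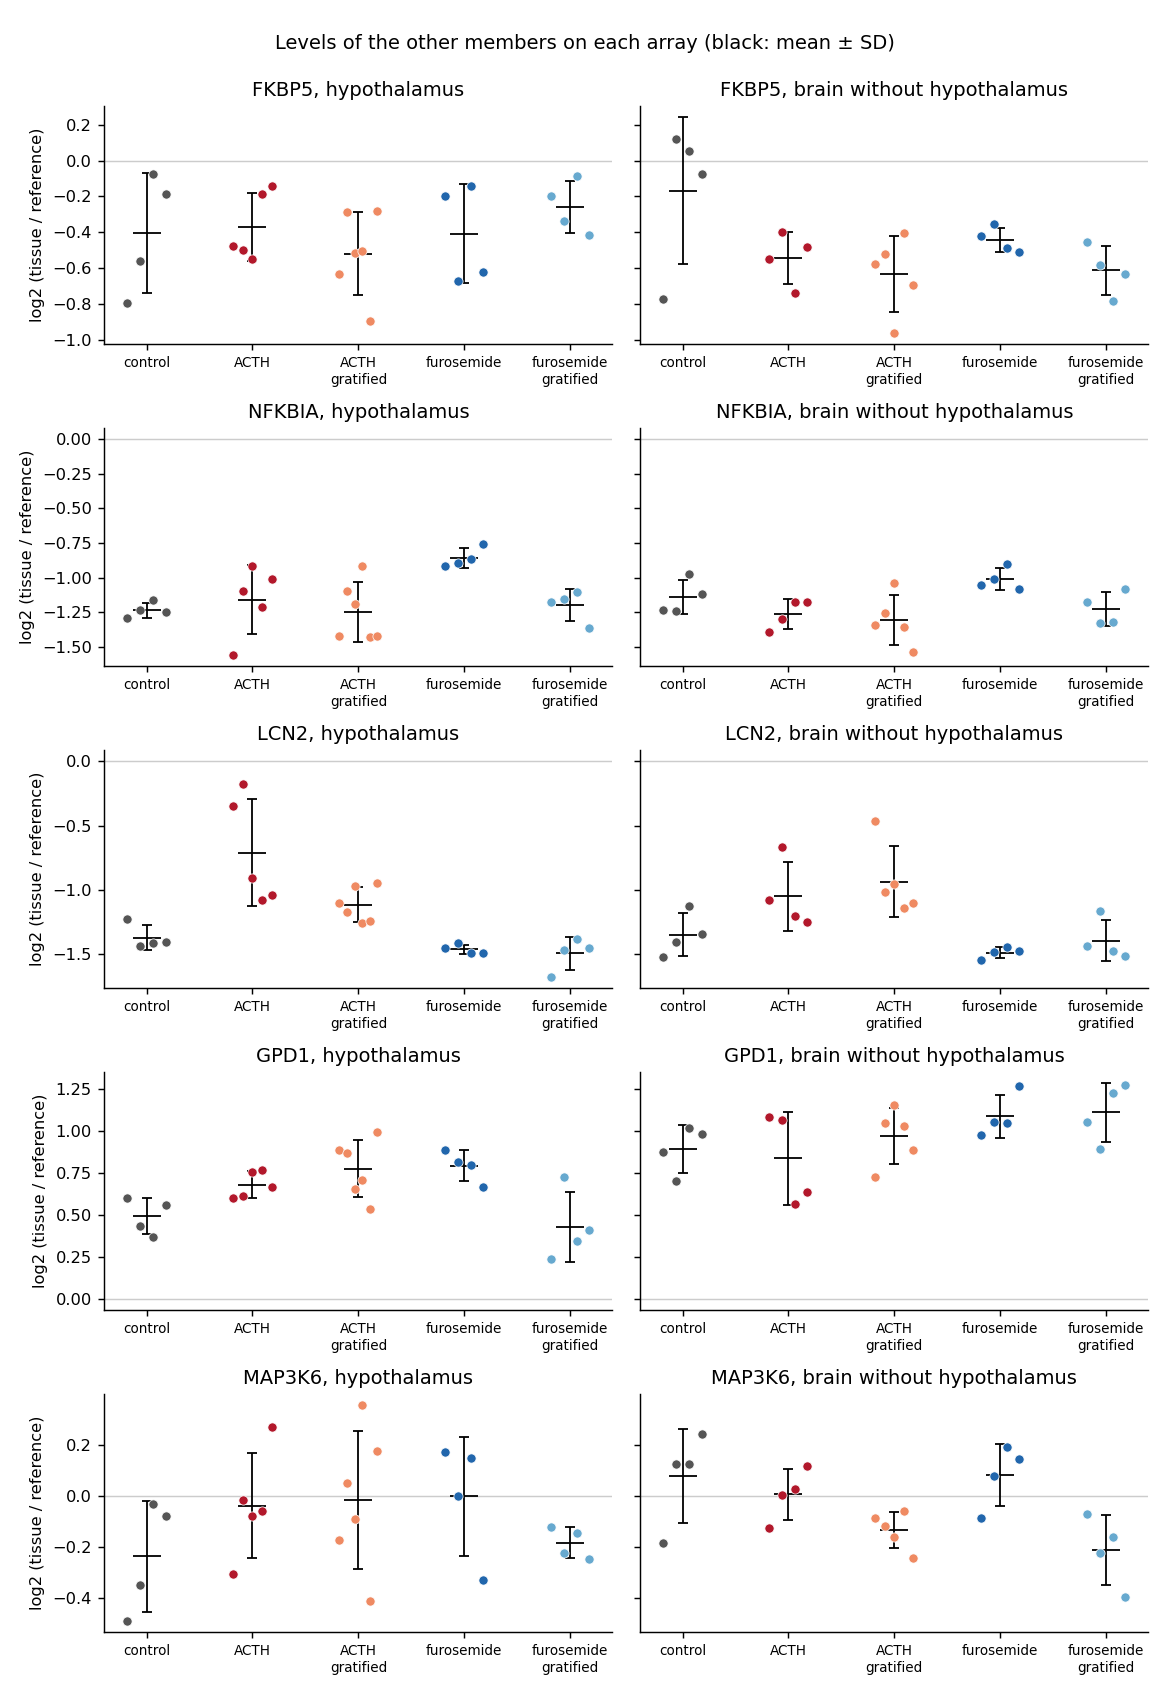
Levels of FKBP5, NFKBIA, LCN2, GPD1 and MAP3K6 (vertical axes, log2 of tissue RNA over reference RNA) on each array by treatment group, in the hypothalamus (left) and the brain without hypothalamus (right); points are arrays and black marks the group mean ± SD. In the hypothalamus NFKBIA is highest with furosemide (-0.86 against -1.23 in controls), and LCN2 is highest with ACTH (-0.71 against -1.37). In the brain LCN2 is highest with ACTH gratified (-0.94 against -1.35).

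No member's treatment effect differed between hypothalamus and brain past the threshold in limma (the share of all features that did was 0%, 0%, 0.0628%, 0%, 0.0314% and 0.0209% over the 6 effects tested). Some members had an unadjusted p under 0.05 in 1 comparison each. These were LCN2 for ACTH gratified minus ACTH (log2 -0.52 ± 0.19, limma adjusted p = 0.502, and -0.53 without hypothalamus ACTH gratified replicates 4 and 6), FKBP5 for furosemide gratified minus control (0.59 ± 0.23, adjusted p = 0.383, and 0.58 without brain furosemide gratified replicate 4), MAP3K6 for ACTH gratified minus control (0.43 ± 0.16, adjusted p = 0.427, and 0.29 without the same arrays) and GPD1 for furosemide gratified minus furosemide (-0.39 ± 0.16, adjusted p = 1, and -0.33 without brain furosemide gratified replicate 4).

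**Figure D3:**
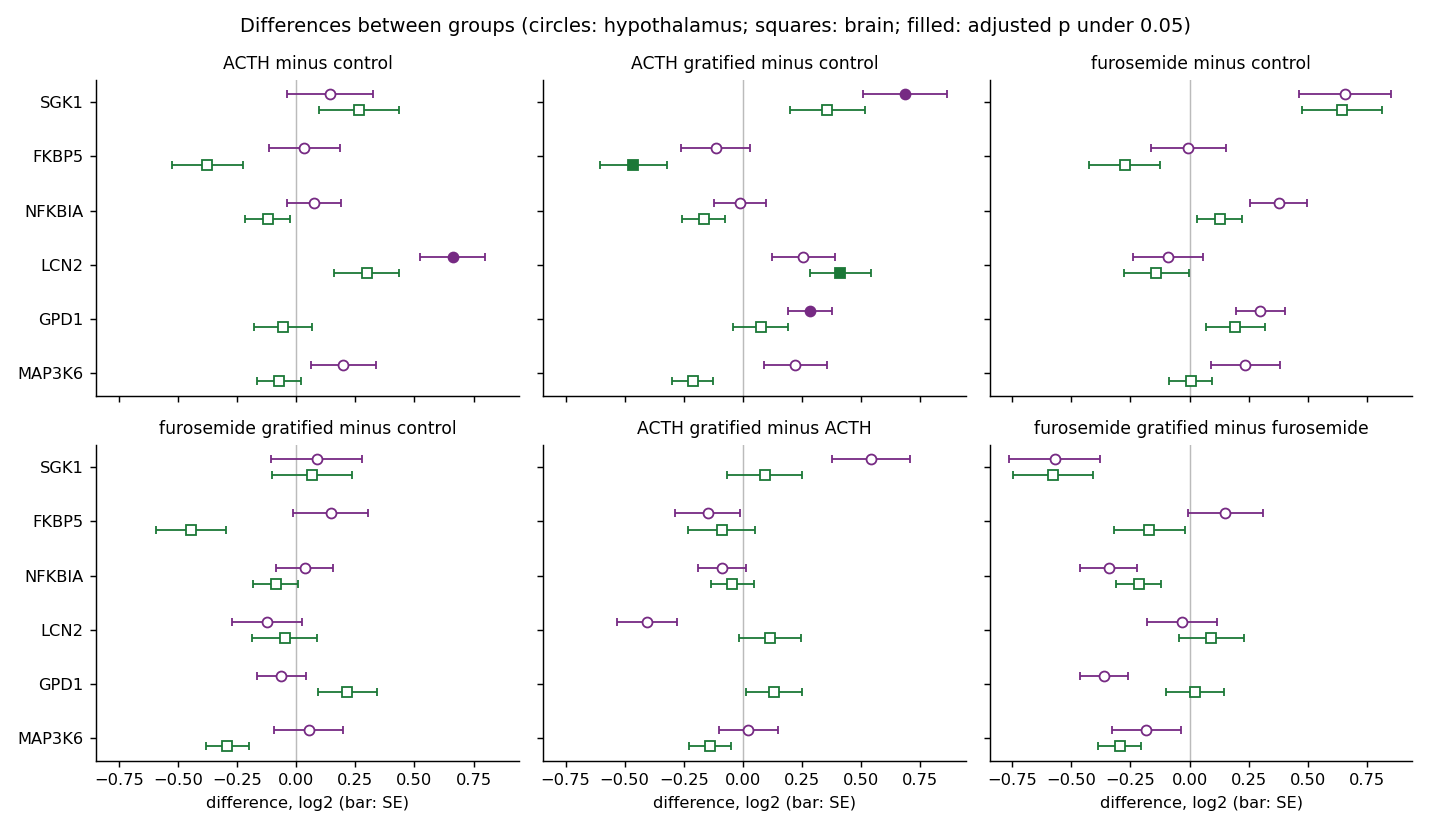
Differences between groups for the 6 members (horizontal axes, log2, bars are SE), one panel per comparison; circles are hypothalamus, squares are brain, and filled symbols passed the adjusted threshold of 0.05. SGK1 lies to the right of 0 in both tissues for furosemide minus control (0.66 and 0.64) and to the left for furosemide gratified minus furosemide (-0.57 and -0.58), unfilled in each; GPD1 in ACTH hypothalamus is left out because of ties.

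Other corticosteroid-responsive genes were followed as a list of 30 genes, of which 19 were measured by 20 features. In ACTH hypothalamus, where 4.49% of all features rose and 6.03% fell, 1 feature of the list rose and 1 fell. These were Cdkn1a, the cell cycle inhibitor p21 (log2 0.54 ± 0.16, limma adjusted p = 0.0363), and Glul, the glutamine synthetase of astrocytes (log2 -1.88 ± 0.11, adjusted p = 1.73e-10). Glul also fell in ACTH brain (-1.69 ± 0.25, adjusted p = 0.000184), where the other calls were Bcl6 and Tsc22d3, both higher. In that comparison 9.29% of all features rose and 20.7% fell. The Tsc22d3 call came from the feature TSC22D3g-s2, which was tied on most of the arrays of a compared group. With furosemide, 0 of the 20 features passed in either tissue, and the list's median difference was log2 0.14 in the hypothalamus and 0.07 in the brain, against 0.02 and -0.02 over all features. For furosemide gratified minus furosemide the list's medians were -0.12 and -0.15, against -0.01 and -0.00.

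The corticosteroid genes followed by name were Per1, a clock gene, Ddit4, an inhibitor of mTOR signalling, Klf9, a transcription factor, Dusp1, a MAP kinase phosphatase, and Tsc22d3, and 0 of them passed with furosemide. Per1 differed from control with furosemide by log2 0.22 ± 0.11 in the hypothalamus and 0.37 ± 0.15 in the brain (limma adjusted p = 0.869 and 0.332). Ddit4 differed by 0.19 ± 0.12 and 0.49 ± 0.10 (adjusted p = 0.947 and 0.0847), and its brain value for furosemide gratified minus control was 0.34 ± 0.10 (adjusted p = 0.103). Klf9 differed by 0.15 ± 0.11 and 0.22 ± 0.11, and Dusp1 by 0.15 ± 0.11 and -0.06 ± 0.09. The feature TSC22D3g-s1 of Tsc22d3 differed by 0.26 ± 0.24 and 0.22 ± 0.17, and TSC22D3g-s2 by -0.05 ± 0.11 and 0.07 ± 0.09, so the estimates were not all of one sign.

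Nr3c1, the glucocorticoid receptor, differed from control with ACTH by 0.02 ± 0.08 in the hypothalamus and 0.02 ± 0.11 in the brain. Nr3c2, the mineralocorticoid receptor, was tied on most of the arrays of a compared ACTH group, so no difference with ACTH is given. It was not so tied in the control and furosemide groups. There its furosemide effect in the hypothalamus minus that in the brain was log2 -0.24 ± 0.12 (limma adjusted p = 0.437). Of their chaperones, Bag1 fell in ACTH brain (log2 -0.54 ± 0.08, adjusted p = 0.000186), in a list of 18 features with 6 down and 1 up there, against 20.7% and 9.29% of all features.

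Of the 16 measured genes of the list on SGK kinases and their sodium-transport targets, the related kinase Sgk3 rose with ACTH in both tissues (log2 0.47 ± 0.11, limma adjusted p = 0.00809 in the hypothalamus; 0.44 ± 0.10, adjusted p = 0.0029 in the brain). Of its 22 features 2 rose in ACTH hypothalamus and 3 in ACTH brain (4.49% and 9.29% of all features rose), and 0 passed with furosemide. Of the 7 measured genes of glycerol phosphate metabolism, Lpin1 (feature LPIN1g-s2), a phosphatidate phosphatase, fell in ACTH hypothalamus (-0.38 ± 0.09, adjusted p = 0.00684). Of the 12 of the stress kinase list, Mapk14, which encodes p38 alpha, rose there (0.42 ± 0.13, adjusted p = 0.047). In that comparison 6.03% of all features fell and 4.49% rose. Only the feature LPIN1g-s2 of Lpin1 is given, and these single genes do not describe their lists, whose counts are not given.

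The features whose levels followed SGK1 most closely over the 44 arrays, among 6790 features with few ties, were Rhou (Pearson r = 0.699), Adipor2 (0.681), Tsc22d3 (feature TSC22D3g-s1, 0.679), F3 (0.646) and Arl4d (0.641). Adipor2 is an adiponectin receptor, Tsc22d3 the glucocorticoid-induced leucine zipper, F3 tissue factor and Arl4d an Arf-like GTPase. The arrays share a reference RNA and the groups above, so the values are descriptions. With Spearman's correlation 4 of the 5 were kept, and with deviations from group means 2 were, led by Arl4d (0.739), Cdkn1a (0.732) and Nfkbia (0.721). Over the 23 hypothalamus arrays Rhou came first (0.8), and over the 21 brain arrays Arl4d (0.834), followed by Adipor2 (0.782), Chga, Plekhf1 and Nfkbia (0.652).

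Arl4d, the GTPase above, was picked for following SGK1 on these arrays, so its levels are a description. Its group means in the hypothalamus were 0.64 ± 0.25 in controls, 1.09 ± 0.04 with furosemide and 0.60 ± 0.03 with furosemide gratified (SD, n = 4 each), and in the brain 0.78 ± 0.10, 1.08 ± 0.08 and 0.65 ± 0.16. Furosemide gratified minus furosemide was log2 -0.49 ± 0.17 in the hypothalamus and -0.43 ± 0.09 in the brain (limma adjusted p = 1 and 0.783).

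Among the members themselves, SGK1 and NFKBIA had the highest correlation over the 44 arrays (r = 0.557) and FKBP5 and MAP3K6 the next (0.545). With group means taken out these were 0.721 and 0.672, so arrays of one group that were high in SGK1 tended to be high in NFKBIA. LCN2 had correlations of -0.34 to -0.00 with the other members over all arrays.

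**Figure D4:**
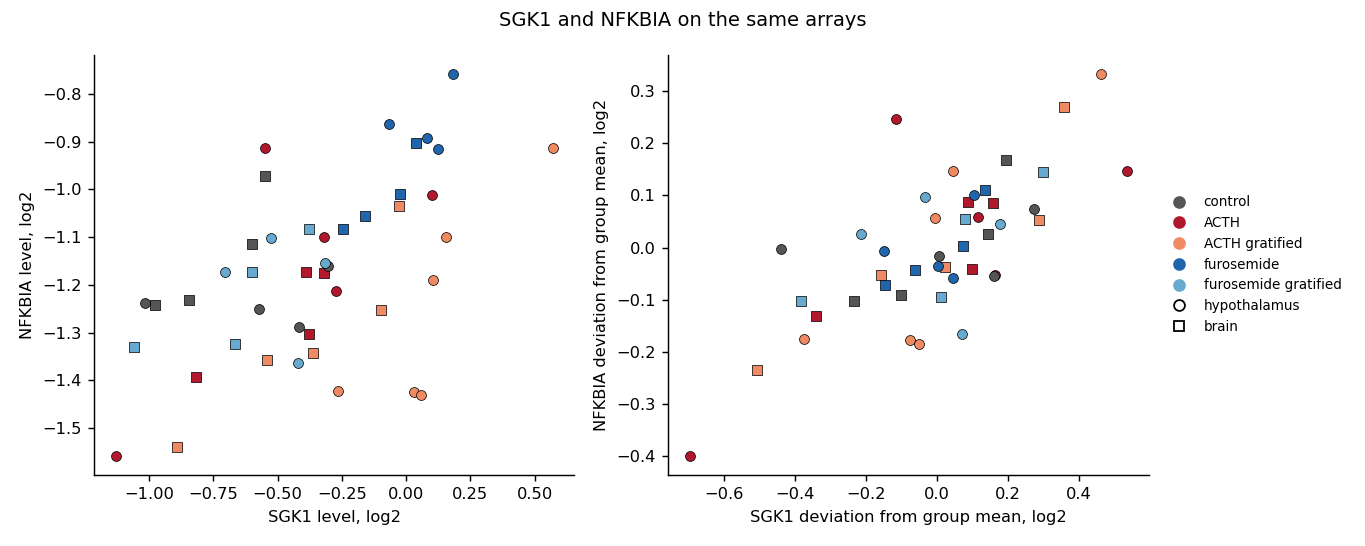
SGK1 (horizontal axis) against NFKBIA (vertical axis) on the 44 arrays, as log2 levels (left) and as deviations from the group mean (right); circles are hypothalamus, squares brain, and colours mark treatments. The points rise together in both panels (r = 0.557 and 0.721), with the hypothalamus furosemide arrays at the upper right of the left panel.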

How the data were processed

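Two-colour arrays of 44 tissue samples were analysed from the authors' deposited table, whose values were taken as log2 ratios of Cy5 tissue RNA over Cy3 reference RNA. Per the submitters' processing notes, the authors used limma. Its version, background correction, normalization and log base were not given in the sources used here, and base 2 was assumed. The table has no missing value, spans -2.65 to 3.17 and leaves 0 columns unmapped. Array medians lie between -0.24 and -0.05, so arrays are not centred on their median, and other centring is unknown. Between 2.75 and 33.5% of the values on an array were exactly tied with another feature. No scanner signals were used here, so precision rests on the number of arrays.

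Of 9554 feature names, 8651 matched a mouse symbol and 580 a synonym of the RefSeq table (GRCm38.p6). The 6 members and all gene and marker lists were chosen with earlier results of these data known. The text names every member, at most 4 genes past the threshold per list and comparison, some corticosteroid genes fixed by name whatever their result, and the 5 features most like SGK1. S100a8, Alas2 and Ltf are named as the members of their list that rose.

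Group means were fitted without covariates by lmFit and eBayes of limma 3.58.1, under R 4.3.3, on all arrays of a tissue, or on all 44 for tissue differences. Tests were two-sided with Benjamini-Hochberg adjustment over 9554 features and a threshold of 0.05. Only features past it are said to rise or fall, and folds are 2 raised to the size of the difference. Errors are SE of the fit unless SD is stated. No difference is given where ties affect over 0.5 of the arrays of a compared group. Replicate numbers are shared between groups, but no label ties them to an animal or day and in no comparison did every same-number pair correlate above 0.1, so they were not used as a block. The limma step was tested on simulated hypothalamus arrays with independent normal noise. These had no ties and no number series effect, so that test does not speak to either. Alternatives were quantile normalization, centring on array medians, array weights, only the compared groups, robust moderation, ties left out, features averaged per gene, a replicate block, the number series as a factor and leaving out each array. Leaving out the hypothalamus ACTH gratified replicates 4 and 6 together, and rescaling the group levels, were added after the data were seen. Features that were lower in the list on SGK kinases and their targets are not reported here.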

Additional observations from a re-analysis of the deposited data

Results flagged for a closer look

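Of 60 sets of values (6 members in 10 groups), 3 held an array whose distance from its nearest neighbour was a large share of the group's range by Dixon's criterion, which chance alone meets in about 1 set in 20. SGK1 in brain ACTH replicate 1 read -0.82, with the next array at -0.39. LCN2 in brain ACTH gratified replicate 1 read -0.46, with the next at -0.95, and without this array the LCN2 difference from control was 0.29 (limma adjusted p = 0.0571). LCN2 in hypothalamus control replicate 1 read -1.23, with the next at -1.41.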

How the results depend on the processing

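Among results other than group levels, 419 of 456 differences and 218 of 241 counts of members past the threshold held under 10 other settings, and 438 of 503 differences held when 1 array was left out. These totals include differences that did not pass in the main analysis and stayed so. Of the calls, 3 passed in every fit without 1 array: LCN2 in ACTH minus control and ACTH minus furosemide hypothalamus, and GPD1 between furosemide gratified tissues. Every other call was lost in at least 1 such fit. GPD1 in ACTH gratified minus control hypothalamus passed in 3 of 10, and SGK1 in ACTH minus furosemide hypothalamus in 2 of 9. GPD1 in ACTH gratified minus control hypothalamus did not pass with array medians set to 0 (0.24), with a replicate block (0.27), with only the groups compared (0.28) or without replicates 4 and 6 (0.25), which left 1 member past the threshold in place of 2. SGK1 in ACTH minus furosemide hypothalamus did not pass after quantile normalization (-0.53), with only the groups compared (-0.52) or with mostly tied features left out (-0.52), again leaving 1 of 2. With only the groups compared, which leaves fewer arrays to estimate the spread, calls were also lost for GPD1 in ACTH gratified minus furosemide gratified hypothalamus (0.35), FKBP5 in ACTH gratified minus control brain (-0.46; 1 member past the threshold), LCN2 in ACTH gratified minus furosemide gratified brain (0.46; 0 members) and GPD1 between tissues in furosemide gratified mice (-0.68; 0 members). GPD1 between control tissues did not pass with quantile normalization (-0.31), centring (-0.37) or the number series (-0.37; 0 members each). SGK1 passed in ACTH gratified minus control brain with quantile normalization (0.42) and a replicate block (0.48). There 5 members passed with quantile normalization and 4 with array weights, where in the main analysis 11.5% of all features rose and 21.2% fell. SGK1 also passed in furosemide minus control brain with array weights (0.63, 1 member). Counts rose to 1 in ACTH minus control brain (quantile, centring). In ACTH minus furosemide brain they rose to 3 with weights and 2 with only the groups compared. They rose to 2 with weights between control tissues and to 1 with weights or only the groups compared between furosemide tissues. In the main analysis 30%, 16.1%, 2.82% and 2.47% of all features passed in these comparisons, in that order. Shares under the other settings are not given. The tissue difference of SGK1 changed sign for furosemide minus control (quantile -0.0092, centring -0.029, weights -0.010) and furosemide gratified minus furosemide (-0.019, -0.0031, number series -0.022). The cause was not tested.

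Leaving out 1 array gave these ranges. In the hypothalamus SGK1 ran from -0.0034 to 0.32 (ACTH minus control), 0.54 to 0.78 (ACTH gratified minus control), -0.059 to 0.18 (furosemide gratified minus control), -0.65 to -0.34 (ACTH minus furosemide) and 0.51 to 0.67 (ACTH gratified minus furosemide gratified), and GPD1 from 0.24 to 0.33 and 0.28 to 0.44 in the second and last of these. In the brain SGK1 ran from 0.27 to 0.48 (ACTH gratified minus control), -0.02 to 0.22 (ACTH gratified minus ACTH) and -0.032 to 0.20 (furosemide gratified minus control). FKBP5 ran from -0.67 (2 of 3 controls tied) to -0.37 and LCN2 from 0.29 to 0.49 in ACTH gratified minus control, and LCN2 from 0.31 to 0.51 and 0.34 to 0.54 against furosemide and furosemide gratified. GPD1 between control tissues ran from -0.47 to -0.36, and the tissue differences of SGK1 from -0.13 to 0.10 and -0.12 to 0.11. Members past the threshold numbered 0 to 2 (ACTH gratified minus control), 1 to 3 (ACTH minus furosemide) and 0 to 3 (gratified treatments compared) in the hypothalamus, 0 to 1, 1 to 3, 0 to 2, 0 to 1 and 0 to 1 in the brain (ACTH, ACTH gratified and furosemide gratified against control, then the treatments compared, ungratified and gratified), and 0 to 1 between control tissues. In the main analysis the shares of all features past the threshold were, in the same order, 12.6%, 22.7% and 16.1% in the hypothalamus. They were 30%, 32.7%, 0%, 16.1% and 9.88% in the brain and 2.82% between control tissues.

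In 0 of 16 comparisons did every same-number pair correlate above 0.1 in its deviations from the group means, so the replicate block rests on a shared number only. Setting array medians to 0 raised all levels by 0.05 to 0.24. With no signals over background used here, precision is limited by the 4 to 6 arrays of a group.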
